A study of Homo sapiens with 47 samples.

Results

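The 9 genes of the *HOXB* cluster from *HOXB1* to *HOXB9* were taken by name from the 58051 genes listed for each of 47 RNA-seq libraries, and all 9 were found. They lie side by side on chromosome 17 (GRCh38, GENCODE 29 annotation), all on the minus strand, from *HOXB1* (ENSG00000120094, chr17:48528526-48531001) to *HOXB9* (ENSG00000170689, chr17:48621159-48626356). *HOXB13*, at chr17:48724763-48729178, lies apart on the *HOXB9* side and was not counted as a member. The libraries came from WA09 (H9) cells, an established human embryonic stem cell (hESC) line that was grown in mTESR1 on Matrigel, and the series followed these cells towards neuromesodermal progenitors (NMPs), pre-neural progenitors (PNPs) and neural crest (NC).

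Undifferentiated cells (t0) were sampled first. NMP-like cells (36 h) had spent 36 h in N2B27 without vitamin A, to which CHIR-99021 (a WNT agonist), rhFGF2, AGN193109 (an inverse agonist of retinoic acid receptors) and Y-27632 (a ROCK inhibitor) were added. The passages P1 to P10 were whole cultures that were dissociated, re-plated and kept in this medium with these agents, with a higher dose of Y-27632 from P1 to P3 than later. At P5 and P8 the cultures were also split by selective detachment with TrypLE into samples enriched for epithelial (EPI) or mesenchymal (MES) cells. Each group held 3 libraries, 1 from each differentiation (r1 to r3), and P9 held 2 (r1 and r2). All groups share a single parental line and, after t0, the same agents, so nothing here separates an agent, or the change in Y-27632 dose, from time in culture. The fractions were enriched rather than sorted. In bulk RNA, fewer cells of a type and less RNA per cell cannot be told apart.

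*HOX* genes encode homeodomain transcription factors that give cells their position along the rostrocaudal axis. In the axial progenitors of the embryo the genes of a cluster come on in the order in which they lie on the chromosome, from *HOX1* towards the terminal genes, and the genes with high numbers mark more caudal levels. WNT and FGF signals and the CDX factors drive this opening, which starts in the posterior streak. Retinoic acid is a known inducer of the *HOX1* end, and PBX and MEIS proteins (the TALE class) bind DNA together with HOX proteins.

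Start site windows of 300 bases (250 before and 50 after the start site, RefSeq, GRCh38.p14) are shown for *HOXB1*, the member with the highest level at 36 h and the 1 that passed as lower by P5, and for *HOXB-AS3*, the antisense transcript that starts inside the cluster and moved with the members. The capitals in the *HOXB1* window (chr17:48530962-48531261, minus strand) mark TGATGGAT, a sequence to which PBX and HOX proteins bind as a pair, and CTTTGAA, a TCF/LEF core sequence. Those in the *HOXB-AS3* window (chr17:48595708-48596007, plus strand) mark TTTATT, a CDX-type sequence, which matched once on each strand, so that the second match appears as its reverse complement. Both matches lie within the annotated span of *HOXB6* on the other strand (chr17:48595751-48604992). The first (chr17:48595766-48595771) is near the 3′ end of *HOXB6* and reads AATAAA on its strand. The GENCODE span of *HOXB-AS3* begins at chr17:48549630, outside this window. The sequences run 5′ to 3′ on the strand of the gene.
HOXB1: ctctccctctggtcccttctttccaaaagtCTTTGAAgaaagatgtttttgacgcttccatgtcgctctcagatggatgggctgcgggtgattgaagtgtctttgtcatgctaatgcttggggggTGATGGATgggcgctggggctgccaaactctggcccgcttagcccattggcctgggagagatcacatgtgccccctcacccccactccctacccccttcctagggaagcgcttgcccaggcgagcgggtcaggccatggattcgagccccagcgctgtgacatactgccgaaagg
HOXB-AS3: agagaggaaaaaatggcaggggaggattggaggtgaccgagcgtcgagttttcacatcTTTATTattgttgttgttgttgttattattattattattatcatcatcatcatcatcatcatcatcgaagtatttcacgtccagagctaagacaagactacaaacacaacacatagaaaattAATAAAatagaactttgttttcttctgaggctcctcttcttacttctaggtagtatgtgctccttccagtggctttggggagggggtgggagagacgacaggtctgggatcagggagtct
Both strands were searched, and no capitals overlap. Of all 35116 windows of the same length, 0.6% held TGATGGAT, 4.43% held CTTTGAA and 17.37% held TTTATT. The *HOXB1* window held no TTTATT or TTTATG and no CTTTGAT, letters which 17.37%, 10.58% and 2.62% of windows held. TGATGGAT began 125 bases before the *HOXB1* start site. A match of letters is a description and no measure of binding. Of the 9 members, 1 had a window in the table used here.

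The libraries held between 13029491 and 64082859 expected counts as deposited (median 47292229). TPM, which the authors computed per transcript length and library, is used for levels and for comparisons between genes. Normalized counts (counts scaled by edgeR's TMM factors) are used for tests. A gene passed if its adjusted p (FDR) in edgeR's quasi-likelihood test was under 1%, it differed by 2-fold or more, and its compared libraries averaged 100 normalized counts or more. Values of 3 counts or fewer were treated as lying at the limit of the depth. Defining markers were present where the labels call for them: the 5 pluripotency markers summed to 3082 to 3452 TPM at t0, the 4 NMP markers to 0.54 to 0.98 TPM at t0 and 183 to 1357 TPM at 36 h, and the neural crest and mesenchyme markers (7) to 457 to 569 TPM in P5 MES against 123 to 302 TPM in P5 EPI. At P8 those NC sums overlapped between the fractions, at 308 to 1011 TPM in MES and 142 to 721 TPM in EPI. The NMP list holds *CDX1*. The pre-neural list holds *SOX2*, *NKX1-2*, *CDX2*, *CDH1* and *EPCAM*. It does not mark pre-neural cells alone, since it summed to 532.5 to 621 TPM at t0. Endoderm markers (3) were under 0.1 TPM in all libraries from P4 on. Several libraries stood apart from others of their group. At 36 h the NMP sums were 183 TPM in r1, 765 TPM in r2 and 1357 TPM in r3. P1.r1 still held 1295 TPM of pluripotency markers where P1.r2 and P1.r3 held 246 and 234 TPM. P10.r1 was closest in its whole profile to P7.r2, while P10.r2 was closest to P10.r3 and P10.r3 to P9.r2.

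The cluster was nearly silent at t0, and 5 of the 9 members passed as higher at 36 h, where 1.33% of all genes did, with *HOXB1* at the highest level. Only *HOXB1* passed without the 36 h library of r3, and no member did without all libraries of r2 or of r3. The 9 members together summed to 1.04 TPM ± 0.42 (SD, n = 3) at t0, 131 ± 193 at 36 h and 801 ± 461 at P1. From P2 to P7 the sum stayed between means of 782.5 and 978 TPM, then it was 721 ± 269 at P8, 216.5 in both libraries of P9 and 402 ± 562 at P10. The wide spreads at 36 h, P1 and P10 came from differentiations that stood at unlike levels.

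**Figure D1:**
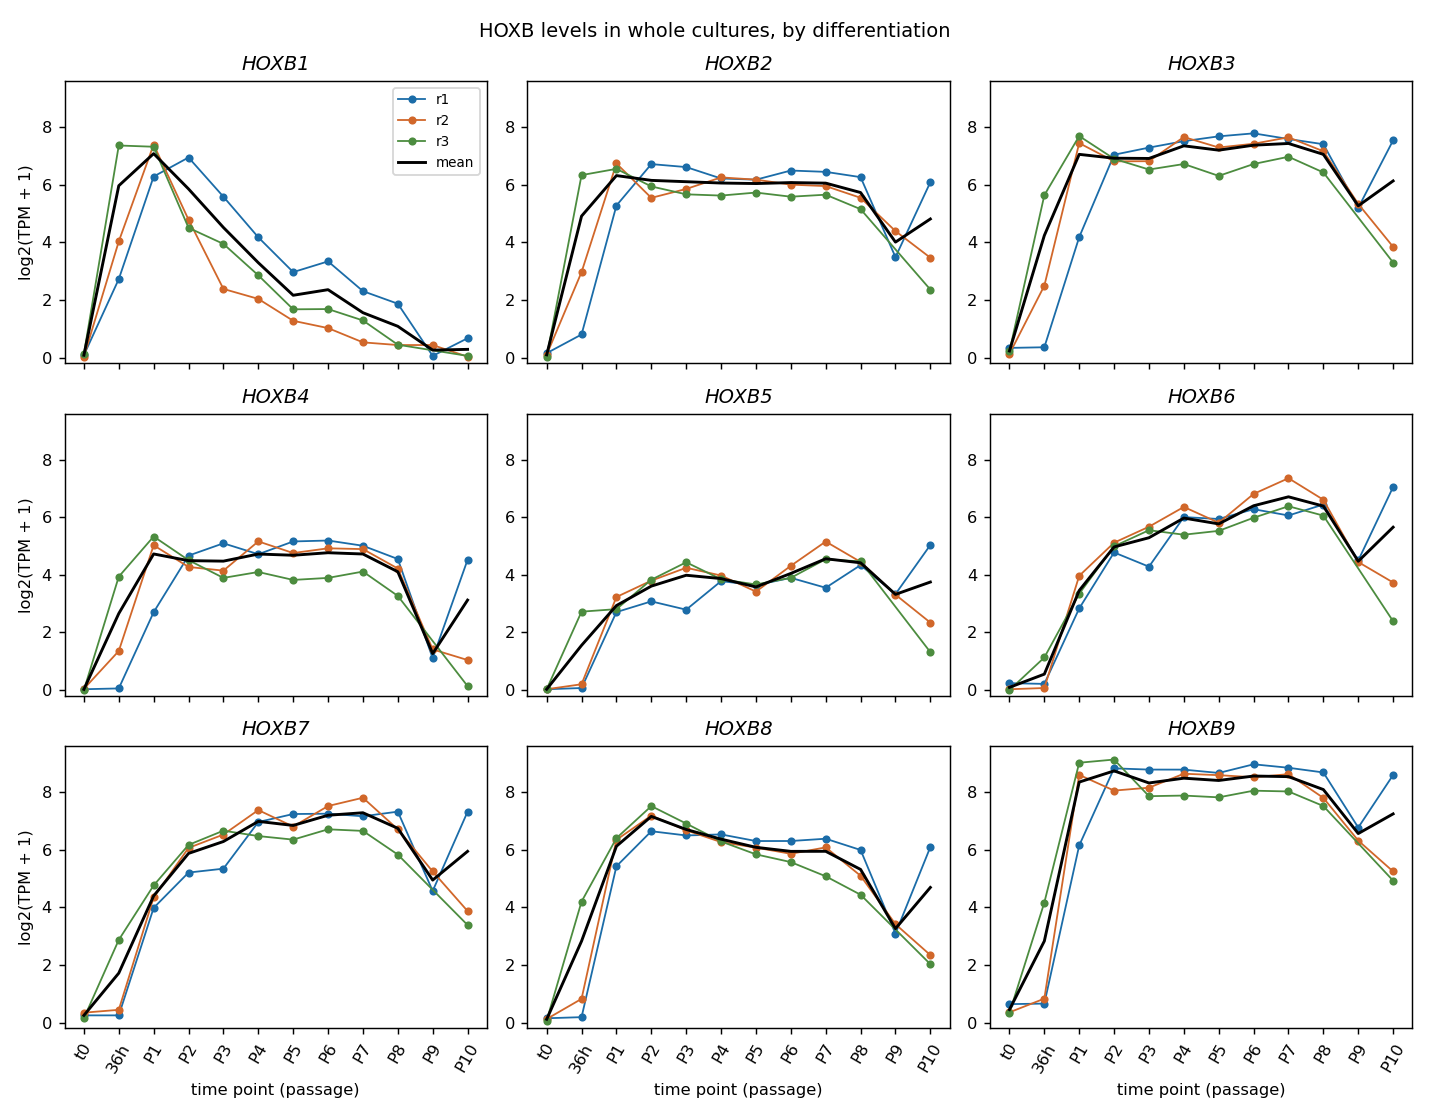
Levels of the 9 *HOXB* members in whole cultures, as log2(TPM + 1) on the vertical axis against time point on the horizontal axis. Colored points and lines are the differentiations r1 to r3 (r3 has no P9 library and its line runs from P8 to P10), and the black line is the log2 of the group mean plus 1. *HOXB1* is highest between 36 h and P2, *HOXB8* is highest at P2, *HOXB9* stays high from P1 to P8, and P10.r1 lies above the other P10 libraries for every member.

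At 36 h the member with the highest mean was *HOXB1*, which specifies hindbrain segments in the embryo. Its level at t0 was 0.06, 0.02 and 0.09 TPM in r1, r2 and r3, and at 36 h it was 5.60, 15.4 and 164 TPM. All 3 libraries of 36 h lay above all of t0, and r3 lay far above r1 and r2. *HOXB2*, a hindbrain gene beside it, went from 0.11, 0.07 and 0.02 TPM to 0.74, 6.81 and 79.6 TPM. *HOXB3*, which is also a hindbrain gene, had 0.26, 0.09 and 0.16 TPM at t0 and 0.28, 4.63 and 48.65 TPM at 36 h. Here r1 had not left the level of t0, nor had it for *HOXB8*, which was at 0.11 TPM at t0. *HOXB4*, known for its role in the caudal hindbrain and in blood progenitors, had at most 3 counts in any t0 library and 3, 138 and 1675 counts at 36 h, or 0.04, 1.56 and 14.3 TPM. *HOXB8* (0.14, 0.77 and 17.4 TPM) and *HOXB9* (0.58, 0.78 and 17 TPM), genes of trunk levels, were at 5 TPM or more in r3 alone, and so were *HOXB5* (0.05, 0.15 and 5.60 TPM) and *HOXB7* (0.19, 0.36 and 6.32 TPM). *HOXB6* was at 0.16, 0.05 and 1.19 TPM. In r3 every member but *HOXB6* was at 5 TPM or more by 36 h, while in r1 *HOXB1* alone was.

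In the test of 36 h against t0, 5 of the 9 members passed, all of them higher, of 21649 genes tested. The log2 fold change of *HOXB1* was 10.39 (SE 1.49, adjusted p = 5.6e-05), that of *HOXB2* 9.31 (SE 1.5, adjusted p = 0.00022), that of *HOXB3* 7.09 (SE 1.42, adjusted p = 0.0017) and that of *HOXB8* 6.20 (SE 1.41, adjusted p = 0.0049). *HOXB4* passed as well (adjusted p = 0.0041). Its fitted change is left out since its t0 counts were at or under the limit of the depth. *HOXB1*, *HOXB2* and *HOXB8* had no more than 6 counts in any t0 library, so the size of their changes rests on few reads. *HOXB9*, at 4.17 (SE 1.11, adjusted p = 0.014), missed the 1% threshold, and *HOXB5*, *HOXB6* and *HOXB7* had means under 100 normalized counts. The number that passed rested on single libraries. Without the 36 h library of r3 only *HOXB1* passed, with 0.821% of genes called higher, and without the t0 library of r1, r2 or r3 it was 3, 2 and 2. The log2 fold changes without the 36 h library of r3 were 8.08 for *HOXB1*, 6.14 for *HOXB2*, 3.91 for *HOXB3* and 2.41 for *HOXB8*. Over the alternatives the adjusted p of *HOXB1* ran from 4.8e-19 to 0.028, that of *HOXB2* from 7.6e-17 to 0.048, that of *HOXB3* from 2.3e-11 to 0.21 and that of *HOXB8* from 4.2e-08 to 0.46. The summed NMP markers stood in the same order over r1, r2 and r3 at 36 h as *HOXB1* to *HOXB4* did, as did *CDX2*, which drives central *HOX* genes (21.8, 121 and 181 TPM). So did the 4 paraxial mesoderm markers (*TBX6*, *MSGN1*, *MEOX1* and *TCF15*), which summed to 8.81, 131.5 and 631.1 TPM at 36 h after 7.11, 9.12 and 9.45 TPM at t0. The part of these markers in the *HOXB* levels was not tested.

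Taking 5 TPM as the onset, *HOXB1* came on at 36 h in all 3 differentiations. In r1 the other 8 members came on together at P1. In r2 *HOXB2* also reached 5 TPM at 36 h and the remaining 7 followed at P1. In r3 all but *HOXB6* had come on by 36 h, with *HOXB6* at P1. Of the 24 pairs of neighbours along the cluster (8 in each differentiation), the member with the lower number came on earlier in 3, at the same time point in 20 and later in 1, the pair of *HOXB6* and *HOXB7* in r3. At 10 TPM it was earlier in 5, at the same time in 14 and later in 5. Most neighbours thus reached 5 TPM at the same time point. Members that came on together and an order finer than the steps between time points cannot be told apart here.

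By P1 *HOXB9* had the highest mean level of the cluster. *HOXB9* was at 70.1, 387 and 519 TPM in r1, r2 and r3, above its level at 36 h in each. *HOXB8* was at 42.1, 80.3 and 83.7 TPM, and *HOXB1* at 77.0, 167 and 159 TPM. For *HOXB1*, r1 and r2 were above their levels at 36 h while r3 was not. *HOXB3* (17.1, 173 and 205 TPM), *HOXB2* (37.8, 106 and 92.7 TPM) and *HOXB4* (5.51, 31.6 and 39.3 TPM) were lowest in r1, the culture that also kept its pluripotency markers. The paraxial mesoderm sum was lowest in r1 as well, at 7.57 TPM beside 363.5 and 359.3 TPM in r2 and r3. *HOXB5* (5.53, 8.39 and 6.01 TPM), *HOXB6* (6.13, 14.6 and 9.16 TPM) and *HOXB7* (14.8, 19.4 and 26.2 TPM), which lie between, were the lowest members by mean along with *HOXB4*.

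From 36 h to P1, 2 of the 9 members passed, both higher, against 0.471% of all genes tested. *HOXB9* had a log2 fold change of 5.78 (SE 1.07, adjusted p = 0.0022) and *HOXB6* one of 4.33 (SE 0.94, adjusted p = 0.0063). *HOXB6* had 2, 2 and 54 counts at 36 h, so the size of its change rests on few reads. Over the same interval 1 of 5 pluripotency markers (list median -3.34) and 2 of 5 pre-neural markers (list median -1.48) passed as lower, and their part in the *HOXB* levels was not tested. The pre-neural list, which undifferentiated cells also express, summed to 1072, 145.4 and 50.52 TPM at P1 in r1, r2 and r3. Of all 21649 genes tested, 260 were called in either direction, 102 of them as higher. *HOXB8*, at 3.49 (SE 1.01, adjusted p = 0.033), missed the threshold in edgeR and passed with DESeq2, which called 4 members and 1.1% of genes as higher. Without the 36 h library of r3, 7 members passed, with 0.44% of genes called higher, without that of r1 it was 1 and without that of r2 it was 0. Without P1.r2 or P1.r3 no member passed. Without the 36 h library of r3 the log2 fold changes were 9.23 for *HOXB9*, 7.49 for *HOXB6* and 7.32 for *HOXB8*, and over all leave-one-out fits they ran from 5.03 to 9.23, from 3.56 to 7.49 and from 2.77 to 7.32. Over the alternatives the adjusted p of *HOXB9* ran from 1.7e-09 to 0.21 and that of *HOXB6* from 1.3e-05 to 0.30.

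After P1 the members parted. *HOXB1* was lower than at P1 from P2 on in r2 and r3 and from P3 on in r1, *HOXB8* was highest at P2, and the means of *HOXB5*, *HOXB6* and *HOXB7* were highest at P7. The mean of *HOXB3* was also highest at P7 (171.7 TPM), while its peaks were at P6, P4 and P1 in r1, r2 and r3. *HOXB1* was at 122, 26.6 and 21.7 TPM at P2, 47.0, 4.21 and 14.4 at P3, 6.81, 1.42 and 2.19 at P5 and 2.65, 0.35 and 0.36 at P8. It was highest in r1 at each of these passages. *HOXB8* stood at 99.05, 145 and 182 TPM at P2, its highest value in each differentiation, and at 78.0, 66.4 and 56.4 at P5. *HOXB9* peaked at P6 in r1 (500.1 TPM), at P4 in r2 (398 TPM) and at P2 in r3 (561 TPM). *HOXB6* was at 60.4, 55.1 and 45.1 TPM at P5 and 65.8, 163 and 82.4 TPM at P7. *HOXB7* had 150 TPM in r1, 111 TPM in r2 and 80.8 TPM in r3 at P5, and 142, 223 and 99.85 TPM at P7. *HOXB5* was the lowest of this trio, with 11.5, 9.69 and 11.7 TPM at P5 and 10.7, 34.7 and 22.3 TPM at P7. For all 3 genes the level at P7 relative to P5 was greatest in r2.

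From P1 to P5, *HOXB1* passed with a log2 fold change of -6.19 (SE 1.13, adjusted p = 0.00065), the only one of the 9 members to do so, where 1.93% of genes were called lower. Its level at P5 was 8.85%, 0.849% and 1.38% of its level at P1 in r1, r2 and r3. *HOXB6* (2.14, SE 0.79, adjusted p = 0.062) and *HOXB7* (2.23, SE 0.83, adjusted p = 0.065) were higher at P5 in all 3 differentiations, and neither passed. *HOXB2*, *HOXB3*, *HOXB4*, *HOXB8* and *HOXB9* were higher at P5 than at P1 in r1 and lower in r2 and r3, so that their differentiations went opposite ways. Over the alternatives the adjusted p of *HOXB1* ran from 8.4e-09 to 0.066, and it missed the threshold in the fits without all libraries of r2 or of r3 (adjusted p = 0.066 and 0.034) and with only the compared groups (0.058). Paraxial mesoderm and NMP markers were lower at P5 too. The paraxial mesoderm list had a median log2 fold change of -5.7 with 2 of 4 genes passing as lower, and the NMP list one of -4.91 with 2 of 4. The pluripotency list had a median of -2.8 with 2 of 5 passing as lower, and the NC and mesenchyme list 3.02 with 2 of 7 passing as higher. The paraxial mesoderm sums were 304.8, 66.97 and 83.21 TPM at P2, 233.3, 12.81 and 24.97 TPM at P3 and 3.79, 2.77 and 2.56 TPM at P5, highest in r1 at each of these passages as for *HOXB1*. The part of these markers in the levels of the members was not tested.

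Between P5 and P8 no member passed in edgeR or in DESeq2, and no member had an unadjusted p under 0.05. Genes called in this comparison made up 0.00924% of those tested in edgeR and 0.67% in DESeq2, and 13.3% had an unadjusted p under 0.05. With only the compared groups in the fit, 5 members had an unadjusted p under 0.05, beside 18.3% of all genes, and none passed. *HOXB5* was at 19.2, 20.8 and 21.1 TPM at P8, which is 168%, 215% and 180% of P5, with a log2 fold change of 0.93 (SE 0.89, adjusted p = 0.74). The P8 values of *HOXB5* did not overlap those of P5. Nor did those of *HOXB6*, at 142%, 175% and 145% of P5. *HOXB8* was at 62.7, 33.2 and 20.7 TPM, or 80.4%, 50.1% and 36.7% of P5 (log2 fold change -0.85, SE 0.91, adjusted p = 0.77). *HOXB1* had a log2 fold change of -1.75 (SE 0.99, adjusted p = 0.47). *HOXB4* was at 64.5%, 67.7% and 65.7% of its P5 level. The summed pre-neural markers were at 580.4, 489.3 and 308.1 TPM at P5 and 694.9, 252.5 and 162 TPM at P8. The NC and mesenchyme sums were 197.9, 257.9 and 436 TPM at P5 and 170.7, 355.9 and 714.4 TPM at P8. The part of these markers in the *HOXB* levels was not tested.

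The make-up of the *HOXB* transcripts differed between time points. *HOXB1* held 56.2% of the summed TPM at 36 h, 19.6% at P1, 5.95% at P2 and 0.405% at P5 (means of 3 libraries). *HOXB9* held 4.94% at 36 h and between 35.7% and 44.6% in every later group. *HOXB6* held 1.5% at P1 and 12.2% at P8, *HOXB7* 3.21% and 14.3%, and *HOXB8* 15.6% at P2 and 5.15% at P8. The mean paralogue number, weighted by TPM, was 2.29 ± 0.21 at 36 h, 5.44 ± 0.49 at P1, 6.67 ± 0.57 at P2, 6.61 ± 0.09 at P5 and 6.44 ± 0.19 at P8 (SD, n = 3).

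**Figure D2:**
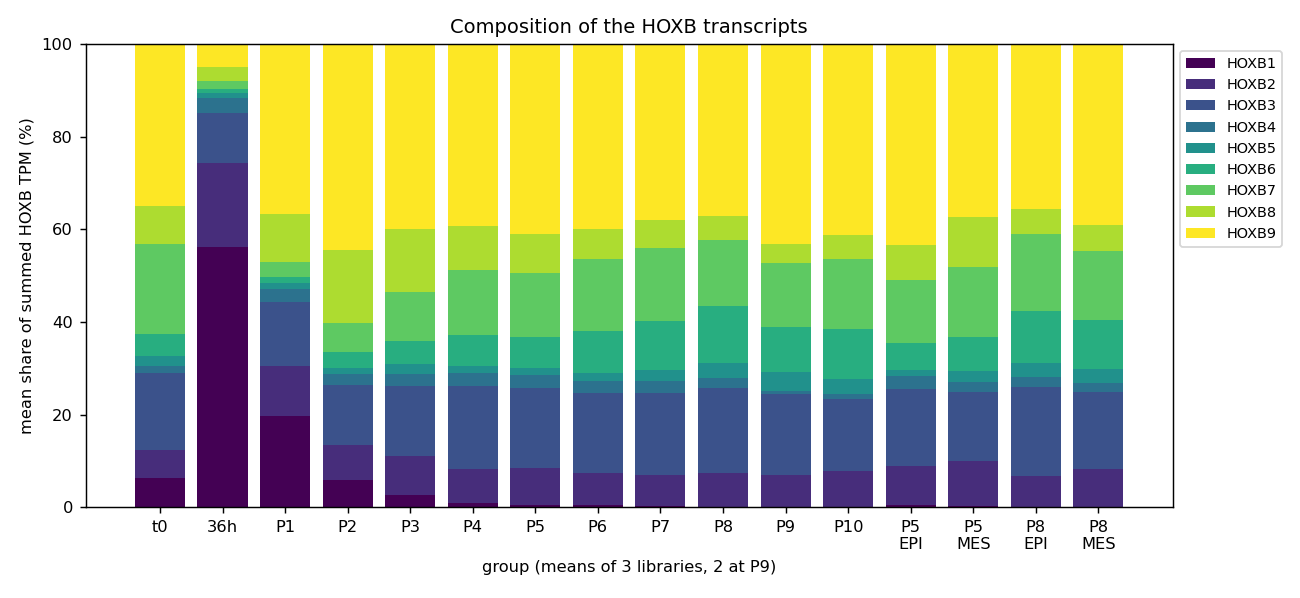
Mean share (%) of each *HOXB* member in the summed TPM of the 9 members on the vertical axis, for the 16 groups on the horizontal axis (means of 3 libraries, 2 at P9). *HOXB1* takes 56.2% at 36 h and under 1% from P4 on, and *HOXB9* takes 35.7% or more in every group from P1 on.

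In the order of levels, *HOXB9* had the highest mean TPM in 15 of the 16 groups and *HOXB1* in 1, 36 h. At P5 the order was *HOXB9* (338.5 TPM), *HOXB3* (146), *HOXB7* (114), *HOXB8* (66.9), *HOXB2* (64.8), *HOXB6* (53.5), *HOXB4* (24.7), *HOXB5* (11) and *HOXB1* (3.47). At that passage *HOXB9* stood clear of *HOXB3* over the 3 libraries, whereas *HOXB3* and *HOXB7*, *HOXB8* and *HOXB2*, and *HOXB2* and *HOXB6* had overlapping ranges. At P8 *HOXB5* had moved above *HOXB4* with overlapping ranges, and *HOXB6* above *HOXB2* and *HOXB8*, also with overlap between the neighbours. At 36 h and P10 all neighbours in the order overlapped, since the differentiations were so far apart. *HOXB-AS3*, whose annotated span overlaps *HOXB3*, *HOXB4*, *HOXB5* and *HOXB6* on the other strand, was at 840, 812 and 461 TPM at P5, above every member in each library. *HOXB3* and *HOXB7* have transcripts that run across neighbouring members. Whether reads were assigned by strand is not given in the sources used here, so the split between these genes is uncertain.

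Late in culture, at P9 and P10, 8 of the 9 members were below their P8 level in 4 of the 5 libraries, and *HOXB1* was at or below it. At P9 *HOXB9* was at 108 and 78.9 TPM in r1 and r2, or 26.4% and 35.5% of P8. At P10 it was at 386, 37.0 and 29.5 TPM in r1, r2 and r3, so that r1 stood at 94.1% of its P8 level and r2 and r3 at 16.6% and 16.1%. *HOXB4* had the lowest levels relative to P8 in both P9 libraries, P10.r2 and P10.r3 among the members with over 5 TPM at P8, with 1.15 and 1.66 TPM at P9 and 22.0, 1.06 and 0.10 TPM at P10. Its P10 level was 98.0%, 6.01% and 1.2% of P8. *HOXB3* (185, 13.3 and 8.84 TPM), *HOXB6* (132, 12.3 and 4.24 TPM) and *HOXB7* (159, 13.7 and 9.47 TPM) showed the same split at P10. *HOXB5* was at 47.2% and 42.9% of its P8 level at P9, the most of any member in r1, and at 166%, 19.5% and 7.06% at P10. *HOXB8* was at 67.4, 4.08 and 3.08 TPM and *HOXB2* at 67.0, 10.0 and 4.13 TPM. *HOXB1* had 32, 1 and 2 counts at P10. For all 9 members, then, P10.r1 lay above both other P10 libraries and above P9.r1, by its label the passage before it in the same differentiation. In its whole profile P10.r1 was closest to P7.r2 and next to the P8 EPI library of r2, and the study grouped it with P5 to P8. The labels were kept as given, so a return within r1 rests on the label of P10.r1.

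**Figure D3:**
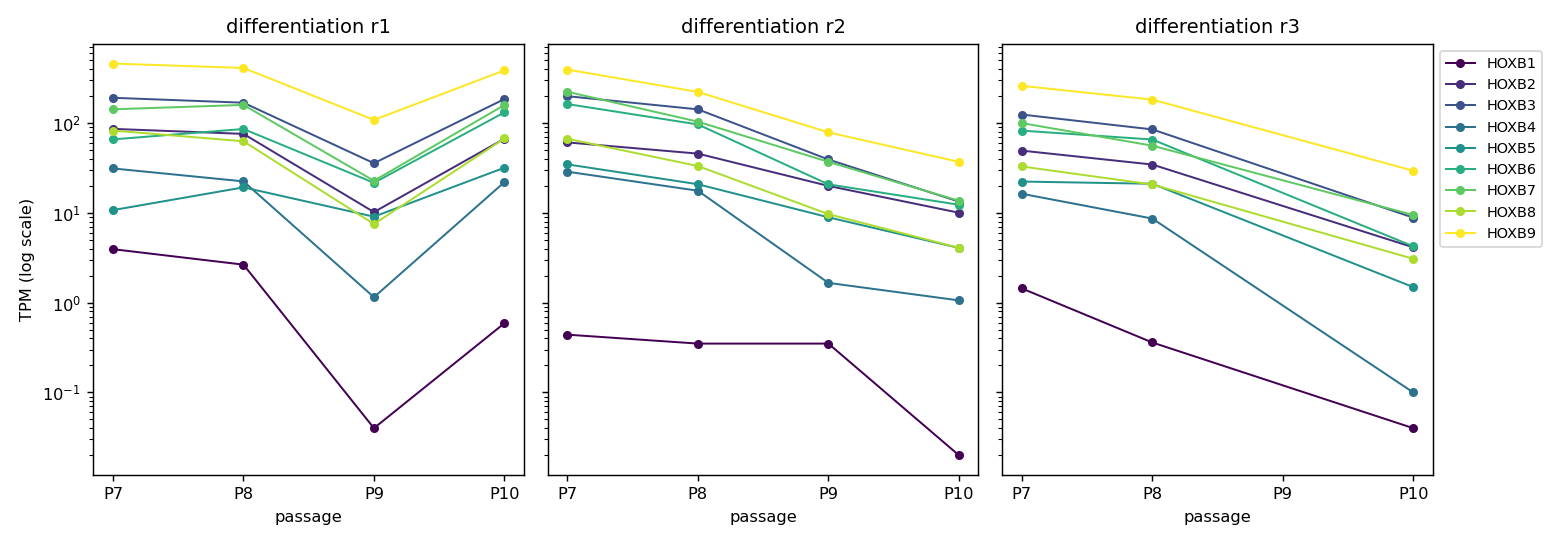
TPM of the 9 *HOXB* members on a log axis from P7 to P10, 1 panel for each differentiation (r3 has no P9 library, and its lines run from P8 to P10). In r2 and r3 every member is lower at P10 than at P8, while in r1 the members are lower at P9 and higher again at P10, as with *HOXB9* at 108 and then 386 TPM. The course in r1 rests on the label of P10.r1.

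Against P8, with P9 and P10 weighted alike, no member passed in edgeR or DESeq2, where 1.25% and 3.27% of genes were called, and 1 had an unadjusted p under 0.05, beside 26.3% of all genes. This was *HOXB4*, with a log2 fold change of -2.43 (SE 1.02, adjusted p = 0.13). *HOXB1* had -2.0 (SE 1.05, adjusted p = 0.23) and *HOXB6* -1.36 (SE 0.68, adjusted p = 0.21). Without P10.r1, a choice made after seeing the data, 3 members passed as lower, namely *HOXB4*, *HOXB6* and *HOXB7*, where 2.4% of genes were called lower, and all 9 had an unadjusted p under 0.05, beside 33.5% of all genes. Without all libraries of r1 it was 2. Without P10.r1 the log2 fold changes were -4.18 for *HOXB4*, -2.95 for *HOXB1* and -2.63 for *HOXB6*, and that of *HOXB1* was -4.2 without P9.r2 and -1.15 without P9.r1. *HOXB1* had 1 and 17 counts at P9 and 32, 1 and 2 counts at P10, so the size of its changes rests on few reads. Over the alternatives the adjusted p of *HOXB4* ran from 0.0031 to 0.62 and that of *HOXB6* from 0.00053 to 0.69. Other readouts moved with these libraries. The summed pre-neural epithelium markers (5) were at 162 to 695 TPM at P8, 16.5 and 16.7 TPM at P9 and 427, 7.35 and 5.24 TPM at P10 in r1, r2 and r3. *CDX2* was at 7.29 and 7.21 TPM at P9 and 193, 2.76 and 1.24 TPM at P10. The NC and mesenchyme markers stood at 1022 and 927 TPM at P9 and at 229, 811 and 901 TPM at P10. Neuron markers summed to 190.3, 173 and 233.1 TPM at P8, 158.5 and 462.4 TPM at P9 and 280.8, 449.1 and 423.5 TPM at P10. *HOXB13*, the terminal gene of the cluster, had close levels in the 3 libraries of P10, at 32.9, 31.7 and 37.1 TPM, after 6.85, 44.5 and 45.1 TPM at P8. The 4 terminal *HOX* genes together summed to 287.1, 607.9 and 364.2 TPM at P10, lowest in r1, after 688.8 and 339.8 TPM in P9.r1 and P9.r2. The part of cell make-up in the lower levels of the members was not tested.

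In the fractions the differentiations went the same way. At P5, 8 of the 9 had less TPM in MES than in EPI in all 3 differentiations, the exception being *HOXB5*. *HOXB9* was at 472, 430.5 and 335 TPM in EPI and 199, 210.2 and 98.7 TPM in MES. *HOXB3* was at 227, 161 and 101 TPM in EPI and 96.4, 72.2 and 37.4 TPM in MES. *HOXB4* stood at 36.8, 27.5 and 17.8 TPM against 14.0, 11.6 and 4.61 TPM, and *HOXB1* at 9.38, 1.78 and 3.40 TPM against 3.35, 0.44 and 0.59 TPM. The MES values of *HOXB9*, *HOXB3* and *HOXB4* lay below all EPI values, and those of *HOXB1* overlapped them because r1 was high in both. *HOXB7* was at 49.9%, 53.3% and 50.6% of its EPI level in MES, and *HOXB6* at 51.4%, 53.8% and 60.1%. *HOXB2* was at 55.6%, 61.8% and 41.0%, and *HOXB8* at 68.5%, 59.8% and 64.3%. The values of these 4 did not overlap between the fractions. *HOXB5* had 11.4, 9.81 and 10.2 TPM in EPI and 11.4, 7.02 and 10.3 TPM in MES, which overlap.

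**Figure D4:**
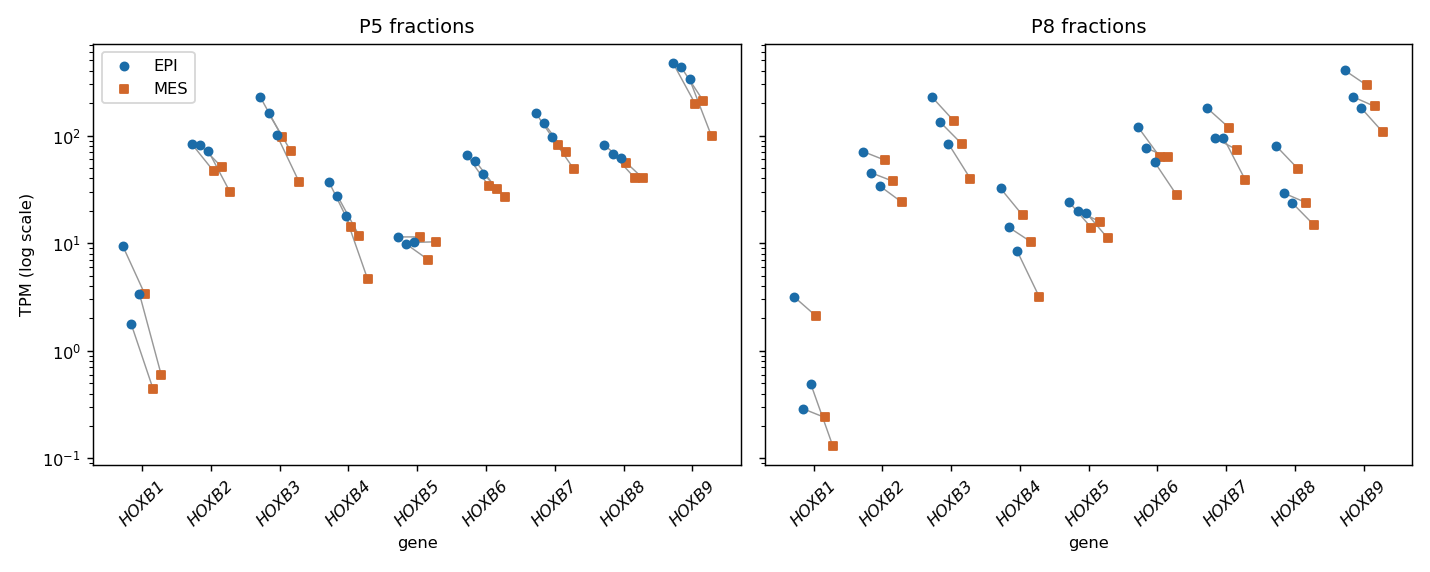
TPM (log axis) of the 9 *HOXB* members in EPI (blue circles) and MES (orange squares) fractions of P5 and P8, with a line joining the fractions of a differentiation (r1 to r3 from left to right). At P5 MES lies below EPI for 8 members and near it in r1 and r3 for *HOXB5*, and at P8 MES lies below EPI for all 9.

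At P5 no member passed the 1% threshold in edgeR, and no gene of the 18924 tested did (0%). An adjusted p under 0.05 was reached by 7 members, against 7.67% of all genes, and an unadjusted p under 0.05 by the same number, against 25.7% (4 members without the replicate block and 1 with all 47 libraries in 1 fit). With the FDR set at 5% and the other thresholds kept, 4 members passed as lower, *HOXB1*, *HOXB3*, *HOXB4* and *HOXB9*, against 1.33% of genes, and DESeq2 at 1% called 4 as lower against 1.7%. The log2 fold changes, MES against EPI, were -2.02 for *HOXB1* (SE 0.38, adjusted p = 0.024), -1.52 for *HOXB4* (SE 0.25, adjusted p = 0.017), -1.32 for *HOXB9* (SE 0.19, adjusted p = 0.015) and -1.27 for *HOXB3* (SE 0.12, adjusted p = 0.013). Those of *HOXB2* (-0.93), *HOXB6* (-0.77) and *HOXB7* (-0.75) had adjusted p values of 0.029, 0.043 and 0.028 and stayed under a 2-fold change. *HOXB8* (-0.59, SE 0.27, adjusted p = 0.21) and *HOXB5* (-0.11, SE 0.18, adjusted p = 0.75) did not reach the 5% level. The interval of *HOXB5*, taken as 2 SE either side, ran from -0.47 to 0.25. The median of the 9 was -0.93, beside -0.01 over all genes tested. Over the alternatives the adjusted p of *HOXB3* ran from 2.6e-16 to 0.55 and that of *HOXB9* from 4.2e-08 to 0.48. Epithelial markers and *CDX2* moved with the members: the pre-neural list summed to 464 to 721 TPM in P5 EPI and 87.4 to 255 TPM in P5 MES, and *CDX2* was at 445, 329 and 257 TPM in EPI and 155, 147 and 49.2 TPM in MES. The part of this make-up in the lower *HOXB* levels of MES was not tested.

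At P8 all 9 members, *HOXB5* included, were lower in MES in all 3 differentiations, and no member passed, nor did any gene (0%). Adjusted p values were 0.24 or more in edgeR, DESeq2 called no member and 0.291% of genes, and 6 members had an unadjusted p under 0.05 (1 without the replicate block and 0 with all 47 libraries in 1 fit), beside 12% of all genes. *HOXB3* was at 229, 134 and 84.2 TPM in EPI and 137, 83.2 and 39.8 TPM in MES (log2 fold change -0.74, SE 0.12, adjusted p = 0.24). *HOXB4* had -0.89 (SE 0.25, adjusted p = 0.29) and *HOXB2*, the smallest difference, -0.36 (SE 0.19, adjusted p = 0.49). In DESeq2 the adjusted p was 0.00011 for *HOXB3* and 0.044 for *HOXB4*, both under a 2-fold change, and over the alternatives the values ran up to 1 for both. The pre-neural sums were 644.8, 278.8 and 185.3 TPM in P8 EPI and 446, 181.9 and 51.77 TPM in P8 MES, lower in MES in each differentiation, and their part in the *HOXB* levels was not tested. *HOXB5* was at 23.9, 19.9 and 19.3 TPM in EPI and 13.9, 15.9 and 11.1 TPM in MES, which do not overlap. The EPI and MES ranges of *HOXB9* overlapped (181 to 406 and 107 to 295 TPM), and the gap was narrowest in r2, where MES held 81.2% of the EPI level. In the test of whether the fraction difference changed between P5 and P8, no member and no gene passed (0%) in edgeR, and DESeq2 called no member and 0.00528% of genes. Unadjusted p values under 0.05 were reached by 2 members, *HOXB3* and *HOXB9* (0 without the replicate block), and by 5.94% of genes. The adjusted p of both was 0.83.

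Within EPI, from P5 to P8, *HOXB5* and *HOXB1* went opposite ways. *HOXB5* was at 209%, 203% and 190% of its P5 level in r1, r2 and r3 (log2 fold change 1.07, SE 0.18, adjusted p = 0.018). *HOXB1* was at 33.7%, 16.3% and 14.4% (log2 fold change -2.27, SE 0.39, adjusted p = 0.019). Neither passed at 1% in edgeR, where 0.264% of genes were called. Both passed at an FDR under 5% (2.65% of genes) and with DESeq2 at 1% (3.2% of genes), and 8 members had an unadjusted p under 0.05, beside 31% of all genes. That count was 1 without the replicate block, 1 with all 47 libraries in 1 fit, 4 without all libraries of r2 and 3 without those of r3. Over the alternatives the adjusted p ran from 7.1e-06 to 0.48 for *HOXB5* and from 4.3e-06 to 0.39 for *HOXB1*. *HOXB8* was lower in all 3, at 99.4%, 42.9% and 37.9% (log2 fold change -0.81, SE 0.27, adjusted p = 0.087). The summed NC and mesenchyme markers in EPI were 122.5, 198.4 and 301.6 TPM at P5 and 141.9, 348.4 and 721.2 TPM at P8, with 1 of the 7 genes passing as higher. The pre-neural sums were 720.8, 583.7 and 464.2 TPM at P5, above the P8 values given before in each. The part of this make-up in the *HOXB* levels of EPI was not tested. In MES no member passed in edgeR or DESeq2, with 0.782% and 3.96% of genes called, and 4 members had an unadjusted p under 0.05, beside 30.1% of all genes. That count was 1 without the replicate block, 0 with all 47 libraries in 1 fit, 2 without all libraries of r1 and 0 without those of r2. *HOXB6* was higher at P8 in all 3 (184%, 198% and 105%; log2 fold change 0.58, SE 0.19, adjusted p = 0.080), and *HOXB8* lower in all 3 (88.6%, 58.7% and 36.4%; log2 fold change -0.84, SE 0.27, adjusted p = 0.083). Pluripotency sums in MES were 139.6, 142.9 and 213.6 TPM at P5 and 69.47, 38.87 and 40.37 TPM at P8. NC and mesenchyme sums were 460.6, 456.9 and 568.5 TPM at P5 and 308.3, 423.1 and 1011 TPM at P8. Neuron marker sums were 162.5, 126.5 and 76.35 TPM at P5 and 154.5, 231.8 and 410.7 TPM at P8. The part of these markers in the *HOXB* levels of MES was not tested.

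The RSEM effective length of a gene, which follows the transcripts that reads are given to, enters TPM as a divisor and was read here by itself. *HOXB4*, *HOXB5* and *HOXB9* have 1 transcript each in the files. *HOXB3*, with 13, had 2853 ± 150 bases at 36 h, 2533 ± 18.9 at P2 and 2167 ± 82.7 at P8 (SD, n = 3), and the values of P8 lay below all those of P2. At P8 it was 2229, 2103 and 2097 bases in EPI and 2280.5, 2378 and 2344 bases in MES, again without overlap. At P5 the fractions overlapped, at 2406, 2326 and 2459 bases in EPI and 2324, 2403 and 2391 bases in MES. *HOXB6* had 1505 ± 25.8 bases at P1 and 1296 ± 11.8 at P7. *HOXB7* was longer in MES than in EPI at P5, at 994, 1006 and 1114 bases against 924, 889.8 and 922. At P8 its values overlapped, at 937, 985 and 1129 bases in MES and 945, 962 and 926 bases in EPI. *HOXB2* had 1480 ± 2.31 bases at P1 and 1477 ± 2.35 at P8. These are estimates that depend on how reads were divided, and no test was made of them.

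Across the 12 time point means, with log2(TPM + 1) as the scale, *HOXB6* and *HOXB7* had the most similar profiles of any pair of members (Pearson r = 0.988), and *HOXB1* stood apart, its highest r being 0.502 with *HOXB2*. The points share libraries and depth, so these values are a description. Of 13517 other genes compared, the closest to *HOXB1* were *HES7* (r = 0.973), *DLL3* (0.967) and *DLL1* (0.961). *HES7* averaged 0.557 TPM at t0, 71.5 at 36 h, 81.8 at P1 and 3.5 at P5. Closest to *HOXB5* were *TPGS1* (0.985), *CD99L2* (0.984) and *ANAPC13* (0.980), and to *HOXB9* they were *PRR3* (0.975), *JAM3* (0.971) and *PBK* (0.971). *ANAPC13* averaged 40.5 TPM at t0 and 102 at P7, where *HOXB5* averaged 0.02 and 22.6 TPM. These names depend on the scale: 3 of the 9 remained with log2(TPM + 0.1).

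Beside the cluster, 8 neighbouring genes were tested (*SNX11*, *CBX1* and *SKAP1* on the *HOXB1* side, and *PRAC1*, *PRAC2*, *HOXB13*, *TTLL6* and *CALCOCO2* on the *HOXB9* side), and none passed in any comparison in edgeR. From P5 to P8 their median log2 fold change was 1.48 in MES, where 6 of the 8 had an adjusted p under 0.05 against 10.4% of all genes, and 1.44 in EPI, where 4 did against 9.71%. The medians over the 9 *HOXB* members were 0.08 and -0.61. Among those 8, *HOXB13* averaged 97 normalized counts in P5 MES and 1819 in P8 MES, and *PRAC1* 14.26 and 298.9. *CBX1*, on the *HOXB1* side, was at 266, 260.5 and 274 TPM at t0 and 328.5, 332 and 362 TPM at P5. Within it, *HOXB-AS3* passed from 36 h to P1, where it was at 10.4, 928 and 795 TPM in r1, r2 and r3 after 1.82, 0.63 and 7.14 TPM. At P10 it was at 455, 2.08 and 0.63 TPM, with r1 apart from r2 and r3 as for the members. Of the 18 paralogues 1 to 9 in the other clusters, 2 passed as higher at 36 h (1.33% of all genes), 4 as higher at P1 (0.471%) and, from P1 to P5, 6 as higher and 1 as lower, where no *HOXB* member passed as higher and 1 passed as lower (2.08% of genes were called higher). The median log2 fold change from P1 to P5 was 0.71 over these 18 and -0.24 over the 9 *HOXB* members, with -0.04 over all genes. In P5 MES against EPI the medians were -0.77 and -0.93. *HOXC8*, a trunk gene, passed from 36 h to P1, at 0.06, 0.07 and 0.07 TPM and then 1.91, 18.6 and 10.5 TPM.

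Of the CDX and TALE genes (12), *CDX1*, *CDX2* and *MEIS2*, a HOX partner, passed as higher at 36 h (1.33% of all genes). *MEIS1* passed as higher at P1 (0.471%), and *CDX1* as lower from P1 to P5 (1.93%). *CDX1* was at 50.2, 138 and 223 TPM at 36 h, 37.9, 154 and 80.8 at P1 and 1.71, 0.69 and 0.88 at P5. *CDX2* was at 348, 277 and 159 TPM at P5. Among 7 genes of retinoic acid synthesis, breakdown and response, none passed at 36 h or P1, and *ALDH1A2*, which makes retinoic acid, passed as lower from P1 to P5, where 1.93% of genes did. In P8 MES against P5 MES, where 0.782% of genes were called, *CYP26B1*, which breaks retinoic acid down, and *HOXA13* passed as higher and *MEIS1* as lower. The levels of *ALDH1A2* at P1 were 0.89, 167 and 347 TPM. Of 4 terminal *HOX* genes, *HOXC13* and *HOXD13* passed as higher from P1 to P5, where 2.08% of genes did. *HOXB13* had 0.16, 6.55 and 0.27 TPM at P5 and 1.34, 32.5 and 24.1 TPM at P7, when *HOXB9* was at 460, 394 and 259.6 TPM.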

How the data were processed

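Bulk RNA-seq of 47 libraries (polyA-selected, single-end) was used, with conditions and replicate numbers from the labels. The authors deposited RSEM expected counts, effective lengths and TPM per gene. The submitters' processing notes name cutadapt 1.16, STAR 2.5.2b, RSEM 1.3.0 and GRCh38. The annotation and strand setting are not given in the sources used here. RSEM divides shared reads between genes, and 9.33% of the deposited expected counts were not whole. TPM as deposited is the expected count per effective length, scaled per library. Symbols and coordinates are from GENCODE 29. Without molecular identifiers, a limit set by a count covers counting error alone.

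Expected counts were rounded and tested with edgeR 4.0.16 (quasi-likelihood F-test, filterByExpr, TMM over all 47 libraries) in R 4.3.3 with limma 3.58.1 beneath it. The 35 whole cultures shared 1 fit and the 12 fraction libraries another, blocked on the replicate number, and p-values were adjusted by Benjamini-Hochberg over all genes tested. Standard errors are the log2 fold change over the root of F. Normalized counts are rounded counts over TMM size factors scaled to a geometric mean of 1. The threshold values are those of the study. Its mean minimum was a DESeq2 base mean, while here the mean was taken over the compared libraries alone. With no mean minimum, 6 members passed from t0 to 36 h. The series' design text says that each experiment ran through all time points, which is where the pairing comes from. Over 13297 genes, deviations from group means correlated between the P5 fractions of the same number by 0.59 to 0.68 and between the P8 fractions by 0.75 to 0.80, but between P1 and P5 by -0.06 to 0.04. No pair of replicates came close to sampling noise (the lowest chi-square per gene was 25.4 over 46 pairs), so each library counted as 1 sample. The labels call them repeats of the experiment. P-values rest on the spread within groups that is left after the replicate block. That spread is pooled over the 35 or 12 libraries of a fit, all from 3 differentiations of a single line.

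The members and gene lists were chosen with earlier results of these data known, and no list gives independent support. All 9 members were named in every comparison. The most similar genes were the 3 outside the *HOX* clusters with the highest Pearson r over 12 time point means among those at 5 TPM or more at any of them. The script was tested on simulated data. Alternatives were DESeq2 1.42.0 with the block (Wald test), DESeq2 size factors, no block, no count filter, other sets of libraries in the fit, each replicate left out, an FDR under 5% and no fold or mean minimum. Leaving out single libraries, and P9 or P10 alone, were added after seeing the data. The motif letters were set with the windows already seen. A gene of the paralogue list enters its counts and is not reported here by name. Figures were drawn with matplotlib 3.10.9.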

Additional observations from a re-analysis of the deposited data

How the results depend on the processing

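Each count of *HOXB* members that passed was recomputed under the alternatives. From t0 to 36 h it was 5, and 1 with only the compared groups in the fit, where *HOXB4* to *HOXB8* did not pass the count filter and *HOXB2* and *HOXB3* had adjusted p values of 0.03 and 0.14. Leaving out each replicate or library in turn gave 0 to 6. From 36 h to P1 it was 2, with 4 by DESeq2, 0 with only the compared groups, and 0 to 7 in the leave-one-out fits. From P1 to P5 it was 1, with 0 for the compared groups alone and 0 to 1 in the leave-one-out fits. For P9 and P10 against P8 it was 0, with 0 to 3 in the leave-one-out fits. For P5 MES against EPI it was 0, with 4 at an FDR under 5%, 4 by DESeq2, 3 with no count filter and 3 with only the compared groups. For P8 EPI against P5 EPI it was 0, with 2 at an FDR under 5%, 2 by DESeq2 and 1 with no count filter. Apart from the members lost to the count filter, the cause of these shifts was not tested. Without the replicate block, which the pairing of the libraries by experiment called for, the counts were 5, 2, 1, 0 and 0 in the time course and 0 in all comparisons of fractions, so the block changed no count of members that passed. It did change others. Without it the members with an unadjusted p under 0.05 went from 7 to 4 in P5 MES against EPI, from 6 to 1 in P8 MES against EPI, from 8 to 1 in P8 EPI against P5 EPI, from 4 to 1 in P8 MES against P5 MES and from 2 to 0 in the interaction. With all 47 libraries in 1 fit these were 1, 0, 1, 0 and 0. Genes called went from 50 to 0 in P8 EPI against P5 EPI, from 148 to 1 in P8 MES against P5 MES and from 270 to 31 in P9 and P10 against P8. P8 against P5, P8 MES against EPI, P8 MES against P5 MES and the interaction kept a count of 0 under all alternatives run. Of 34 fold changes of single members, recomputed 623 times, 2 reversed, both for *HOXB5* in the P5 fractions, which ran from -0.26 to 0.09 in the leave-one-out fits. The share of neighbouring pairs in which the lower number came on no later was 95.8%, and 79.2% to 100% at other thresholds. This share counts ties, which made up 20 of the 24 pairs at 5 TPM, 22 at 1 TPM and 14 at 10 TPM. The lower number was earlier in 3, 2 and 5 pairs and later in 1, 0 and 5. The mean paralogue number at P5 was 6.61, and 6.73 from normalized counts. Of the 9 genes named as most similar, 3 remained with log2(TPM + 0.1), 7 without the TPM filter and 2 to 3 in the leave-one-out fits. Depth limits values of 3 counts or fewer. At t0 these were all 3 libraries for *HOXB4* and *HOXB5*, 2 for *HOXB1*, *HOXB2*, *HOXB6* and *HOXB8* and 1 for *HOXB7*. Others were *HOXB4*, *HOXB5* and *HOXB6* in 36 h r1 with 3, 2 and 2 counts, *HOXB6* in 36 h r2 with 2, and *HOXB1* in P9.r1, P10.r2 and P10.r3, with 1, 1 and 2 counts.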
